A study of Mus musculus with 25 samples.

Results

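The subject is a set of 10 immediate early genes, followed in mouse liver through concanavalin A hepatitis and in the livers of mice that also received BW245C. They were Fos, Fosb, Fosl1, Jun and Junb, which encode subunits of the transcription factor AP-1, the zinc finger factors Egr1 and Egr2, the early response genes Ier2 and Ier3, and the proto-oncogene Myc. The genes were picked by symbol, through the RefSeq accession that the array design gives for each probe. Each of the 10 had 1 probe, and they were 10 of the 15104 genes tested.

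The series holds 25 single-colour Agilent arrays, each with the liver RNA of 1 female C57BL/6 mouse (substrain label C57BL/6NcrSlc), in 5 groups of 5 mice. In the ConA + BW245C groups, collected at 3 hr or at 24 hr, mice received 10 mg/kg of the T cell mitogen concanavalin A (ConA), a lectin of the jack bean used to set off immune hepatitis in mice, followed after 15 min by an intraperitoneal dose of 1 mg/kg BW245C, an agonist of the prostaglandin D2 receptor DP1. The ConA + vehicle groups, also collected at 3 hr or at 24 hr, received the same ConA dose and then vehicle. The untreated group received neither, so that no group shows vehicle or BW245C without ConA, and there is 1 untreated group for both times.

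Immediate early genes are switched on by signals that reach factors already present in the cell, so their transcripts appear without new protein synthesis and usually fade within hours. Fos family proteins pair with Jun family proteins to form AP-1, which binds its site in enhancers and promoters of cytokine, protease and growth genes. In the liver the class is known for its sharp response to partial hepatectomy, ischaemia, cytokines and toxins.

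Values are log2 of the background-corrected probe signal minus log2 of the 75th percentile of the same array, called log2 relative signal here. A value compares samples for 1 probe and not 1 gene with another. Of the 10 probes, 7 were well above background on all 25 arrays. Junb was so on 24 arrays, with 4 of 5 in the untreated group, and Egr2 on 22, with 2 of 5 untreated. Fosl1 was well above background on 17 arrays, with 2 of 5 in the ConA + BW245C 3 hr group and 0 of 5 in the untreated group. Between 52.2% and 61.6% of the spots of an array were well above background, and none was saturated. Precision is set by the number of mice. All 7 hepatocyte markers checked were above background in every group. Slide and group were only partly separable, since of the 5 slides slide 3 held all 5 ConA + BW245C 3 hr arrays with 2 ConA + vehicle 3 hr arrays and 1 ConA + vehicle 24 hr array, while slide 4 held 3 ConA + BW245C and 4 ConA + vehicle arrays of 24 hr. Values within those slides, and with the slide as a block, are given beside the results. In whole-liver RNA, fewer cells of a type and less RNA per cell cannot be told apart.

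RefSeq promoter windows were at hand for 6 of the 10 genes (Fos, Fosb, Jun, Junb, Egr2 and Ier3), each with 250 bases before and 50 after a transcription start, on build GRCm38.p6. Those of Fos, Jun, Junb, Egr2 and Ier3 are shown because their group means fell in the same order, and that of Fosb because its fold after ConA at 3 hr was small beside those of Fos, Jun and Junb. The windows are chr12:85473640-85473939 on the plus strand for Fos, chr4:95052173-95052472 on the minus strand for Jun, chr8:84978699-84978998 on the minus strand for Junb, chr10:67537619-67537918 on the plus strand for the start of Egr2 numbered 3 of 5, chr17:35821463-35821762 on the plus strand for Ier3 and chr7:19309996-19310295 on the minus strand for Fosb. Each is printed 5′ to 3′ on the gene's own strand, and capitals mark matches to the motifs searched.
Fos: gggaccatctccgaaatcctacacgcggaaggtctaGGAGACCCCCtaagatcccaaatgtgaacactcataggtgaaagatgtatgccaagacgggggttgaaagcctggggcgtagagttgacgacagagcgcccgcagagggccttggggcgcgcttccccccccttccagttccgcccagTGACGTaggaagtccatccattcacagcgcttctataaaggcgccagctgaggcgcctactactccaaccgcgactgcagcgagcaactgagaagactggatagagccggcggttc
Jun: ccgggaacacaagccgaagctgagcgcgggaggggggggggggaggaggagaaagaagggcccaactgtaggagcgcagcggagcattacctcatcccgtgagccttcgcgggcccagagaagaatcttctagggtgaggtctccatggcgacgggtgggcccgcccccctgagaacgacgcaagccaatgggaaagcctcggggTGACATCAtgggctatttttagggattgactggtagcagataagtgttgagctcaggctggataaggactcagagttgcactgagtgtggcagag
Junb: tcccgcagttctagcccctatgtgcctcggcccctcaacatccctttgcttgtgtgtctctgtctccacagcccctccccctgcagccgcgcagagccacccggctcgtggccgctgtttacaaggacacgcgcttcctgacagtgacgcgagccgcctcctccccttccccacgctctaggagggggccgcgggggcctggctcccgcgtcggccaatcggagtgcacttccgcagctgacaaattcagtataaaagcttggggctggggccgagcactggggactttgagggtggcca
Egr2: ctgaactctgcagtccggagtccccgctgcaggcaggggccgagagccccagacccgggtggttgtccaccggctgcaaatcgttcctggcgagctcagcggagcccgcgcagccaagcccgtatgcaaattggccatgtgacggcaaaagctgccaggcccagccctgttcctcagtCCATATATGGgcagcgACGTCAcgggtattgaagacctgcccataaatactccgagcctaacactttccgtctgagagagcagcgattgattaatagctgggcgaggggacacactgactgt
Ier3: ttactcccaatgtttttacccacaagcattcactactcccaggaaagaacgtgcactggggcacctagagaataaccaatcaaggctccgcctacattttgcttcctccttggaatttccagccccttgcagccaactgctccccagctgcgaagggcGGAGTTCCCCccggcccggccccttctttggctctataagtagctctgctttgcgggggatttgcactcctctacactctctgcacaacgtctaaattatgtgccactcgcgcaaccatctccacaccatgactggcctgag
Fosb: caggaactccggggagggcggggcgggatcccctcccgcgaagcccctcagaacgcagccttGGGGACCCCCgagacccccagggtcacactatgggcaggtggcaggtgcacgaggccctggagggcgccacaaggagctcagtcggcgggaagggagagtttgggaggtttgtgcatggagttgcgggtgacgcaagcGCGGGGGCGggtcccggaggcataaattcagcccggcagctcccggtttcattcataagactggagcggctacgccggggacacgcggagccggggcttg

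The motifs, searched on both strands, were TGANTCA (the AP-1 site), TGACGTCA (the cAMP response element, CRE), TGACGT (the CRE core, which overlaps the full CRE), TGACATCA (the AP-1 site variant known from Jun), GCGNGGGCG (the Egr site), CACGTG (the E box of Myc), the CArG box of serum response factor and the NF-kappaB site. In Fos the capitals mark an NF-kappaB match at -214 and TGACGT at -66, given as the first base of the match in bases from the start site. In Jun they mark TGACATCA at -45. In Egr2 they mark a CArG box at -72 and, at -56, ACGTCA, which is the CRE core on the other strand. In Ier3 an NF-kappaB match lies at -92, and in Fosb an NF-kappaB match lies at -188 and an Egr site, GCGGGGGCG, at -50. Of 32851 mouse promoter windows of that length, 7.51% held the CRE core, 3.62% TGACATCA, 1.63% a CArG box, 4.51% an NF-kappaB match and 5.55% an Egr site. TGANTCA, present in 7.81% of all windows, and the full CRE, present in 1.79%, were in none of the windows of the 6 genes. CACGTG, present in 7.15%, was found at -27 of the Egr2 start numbered 1. The window of Junb held no match to any motif searched. A match describes the letters of a window and was not tested as a binding site.

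Fos encodes the founding member of the Fos family, and its probe was printed 10 times on each array. At 3 hr the log2 relative signal of Fos in mice 1 to 5 was 0.83, 0.75, 0.37, 1.71 and -0.70 in ConA + BW245C livers, against 2.09, 2.02, 2.36, 2.62 and 3.45 in ConA + vehicle livers and -3.18, -3.43, -2.71, -3.60 and -1.61 in untreated livers. Every BW245C liver lay below every vehicle liver and above every untreated liver. At 24 hr it was -1.40, -2.82, -1.02, -0.49 and 0.37 in ConA + BW245C livers, against 0.73, 0.47, -0.10, 0.38 and -0.07 in ConA + vehicle livers. Only mouse 5 of the BW245C group reached the vehicle range, and mouse 2 fell inside the untreated range.

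Fosb encodes a second Fos family member, best known from neurons. Fosb had a log2 relative signal at 3 hr of -1.56, -1.52, -1.68, -1.49 and -1.41 in ConA + BW245C livers, against -1.96, -1.91, -1.67, -1.46 and -1.30 in ConA + vehicle livers and -2.48, -2.56, -2.19, -2.16 and -2.01 in untreated livers. The BW245C livers all lay within the vehicle range, and all ConA livers lay above the untreated ones by a small margin. By 24 hr Fosb stood at -2.14, -1.83, -2.66, -1.87 and -2.19 in ConA + BW245C livers, against -1.55, -1.64, -1.96, -1.71 and -1.63 in ConA + vehicle livers. BW245C mice 2 and 4 lay within the vehicle range, mice 1 and 5 within the untreated range, and mouse 3 below both. Mouse 3 was the only array of that group on slide 2. The slide 2 arrays were also the lowest for Fosb in the untreated and ConA + vehicle 3 hr groups.

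Fosl1 encodes Fra-1, a Fos family member whose own gene is an AP-1 target in mouse and human cells and which appears later than Fos. At 3 hr the log2 relative signal of Fosl1 was -4.21, -4.29, -5.06, -4.35 and -4.50 in ConA + BW245C livers, against -2.51, -3.80, -3.61, -3.68 and -3.75 in ConA + vehicle livers and -6.66, -5.45, -5.43, -5.43 and -4.97 in untreated livers. The BW245C livers lay below all vehicle livers, and 1 of them (mouse 3) overlapped the untreated livers, where the probe was not well above background. At 24 hr it was -2.44, -3.29, -2.32, -1.85 and -1.82 in ConA + BW245C livers, against -0.54, -0.59, -0.87, -0.93 and -0.73 in ConA + vehicle livers. The groups did not overlap, and the vehicle livers of 24 hr held the highest values of the whole set for this gene.

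Jun encodes c-Jun, the main partner of Fos in AP-1. Jun had a log2 relative signal at 3 hr of 4.11, 4.32, 4.15, 4.70 and 3.59 in ConA + BW245C livers, against 6.33, 6.47, 6.27, 6.44 and 6.29 in ConA + vehicle livers and 1.24, 1.60, 1.28, 1.72 and 1.51 in untreated livers. The 3 groups were widely separated, and the vehicle livers were nearly alike. By 24 hr Jun stood at 3.16, 3.09, 3.50, 3.42 and 4.18 in ConA + BW245C livers, against 4.39, 4.27, 3.77, 4.23 and 4.13 in ConA + vehicle livers. Mouse 5 of the BW245C group lay inside the vehicle range and the other 4 lay below it.

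Junb encodes a Jun family member that can restrain c-Jun at some genes. Junb had a log2 relative signal at 3 hr of 0.92, 0.74, 0.54, 1.22 and 0.47 in ConA + BW245C livers, against 1.80, 1.48, 1.53, 1.68 and 1.82 in ConA + vehicle livers and -3.38, -2.96, -3.49, -4.42 and -4.40 in untreated livers. By 24 hr Junb stood at -1.76, -2.34, -1.45, -1.07 and -0.54 in ConA + BW245C livers, against 0.52, 0.10, -0.25, -0.062 and -0.46 in ConA + vehicle livers. Each BW245C liver lay below each vehicle liver at both times, although at 24 hr mouse 5 came close, and each ConA liver lay above the untreated ones.

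Egr1 encodes a zinc finger factor that binds GC-rich sites and is induced by growth factors and stress. At 3 hr the log2 relative signal of Egr1 was 5.37, 5.20, 4.99, 6.75 and 4.74 in ConA + BW245C livers, against 6.06, 6.04, 6.32, 6.45 and 6.19 in ConA + vehicle livers and 1.31, 1.44, 0.97, 0.015 and 0.51 in untreated livers. BW245C mouse 4 lay above every vehicle liver while the other 4 lay below every one of them. At 24 hr it was 2.00, 0.70, 2.81, 2.86 and 2.90 in ConA + BW245C livers, against 3.64, 3.57, 3.36, 3.02 and 3.17 in ConA + vehicle livers. These groups did not overlap, and BW245C mouse 2 was back in the untreated range.

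Egr2 encodes a relative of Egr1, known in T cells for its part in anergy. Egr2 had a log2 relative signal at 3 hr of 2.03, 2.30, 1.68, 2.82 and 1.55 in ConA + BW245C livers, against 2.72, 2.68, 2.65, 2.71 and 2.94 in ConA + vehicle livers and -3.80, -5.29, -3.67, -4.87 and -4.28 in untreated livers. Mouse 4 of the BW245C group lay inside the narrow vehicle range and the other 4 below it. By 24 hr Egr2 stood at -0.79, -2.09, -0.31, -0.089 and -0.45 in ConA + BW245C livers, against 0.68, 0.55, 0.10, 0.35 and -0.078 in ConA + vehicle livers. The BW245C livers were all lower, with mouse 4 just under the lowest vehicle liver.

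Ier2 encodes a small nuclear protein induced by growth factors. At 3 hr the log2 relative signal of Ier2 was -0.20, -0.56, -0.38, 0.84 and -0.67 in ConA + BW245C livers, against 1.34, 1.31, 1.22, 1.41 and 1.61 in ConA + vehicle livers and -0.89, -0.61, -0.92, -0.97 and -1.08 in untreated livers. The BW245C livers lay below the vehicle livers without overlap, and mouse 5 reached into the untreated range. At 24 hr it was -1.30, -1.95, -1.16, -1.42 and -0.69 in ConA + BW245C livers, against -0.52, -0.90, -0.98, -0.77 and -1.07 in ConA + vehicle livers. The vehicle livers then overlapped the untreated livers, and 4 of the 5 BW245C livers lay below every untreated liver.

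Ier3, also known as IEX-1, is an NF-kappaB target involved in cell survival under TNF signalling. Ier3 had a log2 relative signal at 3 hr of 3.21, 3.13, 3.23, 4.60 and 2.14 in ConA + BW245C livers, against 4.86, 4.43, 4.74, 5.18 and 4.66 in ConA + vehicle livers and -3.12, -3.24, -3.30, -3.50 and -3.51 in untreated livers. Mouse 4 of the BW245C group lay inside the vehicle range, the other 4 lay below it, and all were far above the untreated livers. By 24 hr Ier3 stood at 0.16, -1.58, 0.59, 1.28 and 1.38 in ConA + BW245C livers, against 2.73, 2.65, 2.06, 2.40 and 2.20 in ConA + vehicle livers. No BW245C liver reached the vehicle livers.

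Myc encodes the E box factor that pairs with Max and drives ribosome production and cell growth, and its probe was printed 2 times. Myc had a log2 relative signal at 3 hr of 1.36, 1.57, 0.74, 1.50 and 1.00 in ConA + BW245C livers, against 1.99, 1.28, 1.63, 1.72 and 1.65 in ConA + vehicle livers and -0.91, -1.46, -1.50, -1.76 and -1.51 in untreated livers. BW245C mice 1, 2 and 4 lay within the vehicle range and mice 3 and 5 below it. By 24 hr Myc stood at 0.63, -0.70, 0.084, 1.03 and 1.17 in ConA + BW245C livers, against 1.76, 1.31, 0.97, 1.63 and 1.25 in ConA + vehicle livers. BW245C mice 4 and 5 lay within the vehicle range, and all ConA livers remained above the untreated ones.

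**Figure D1:**
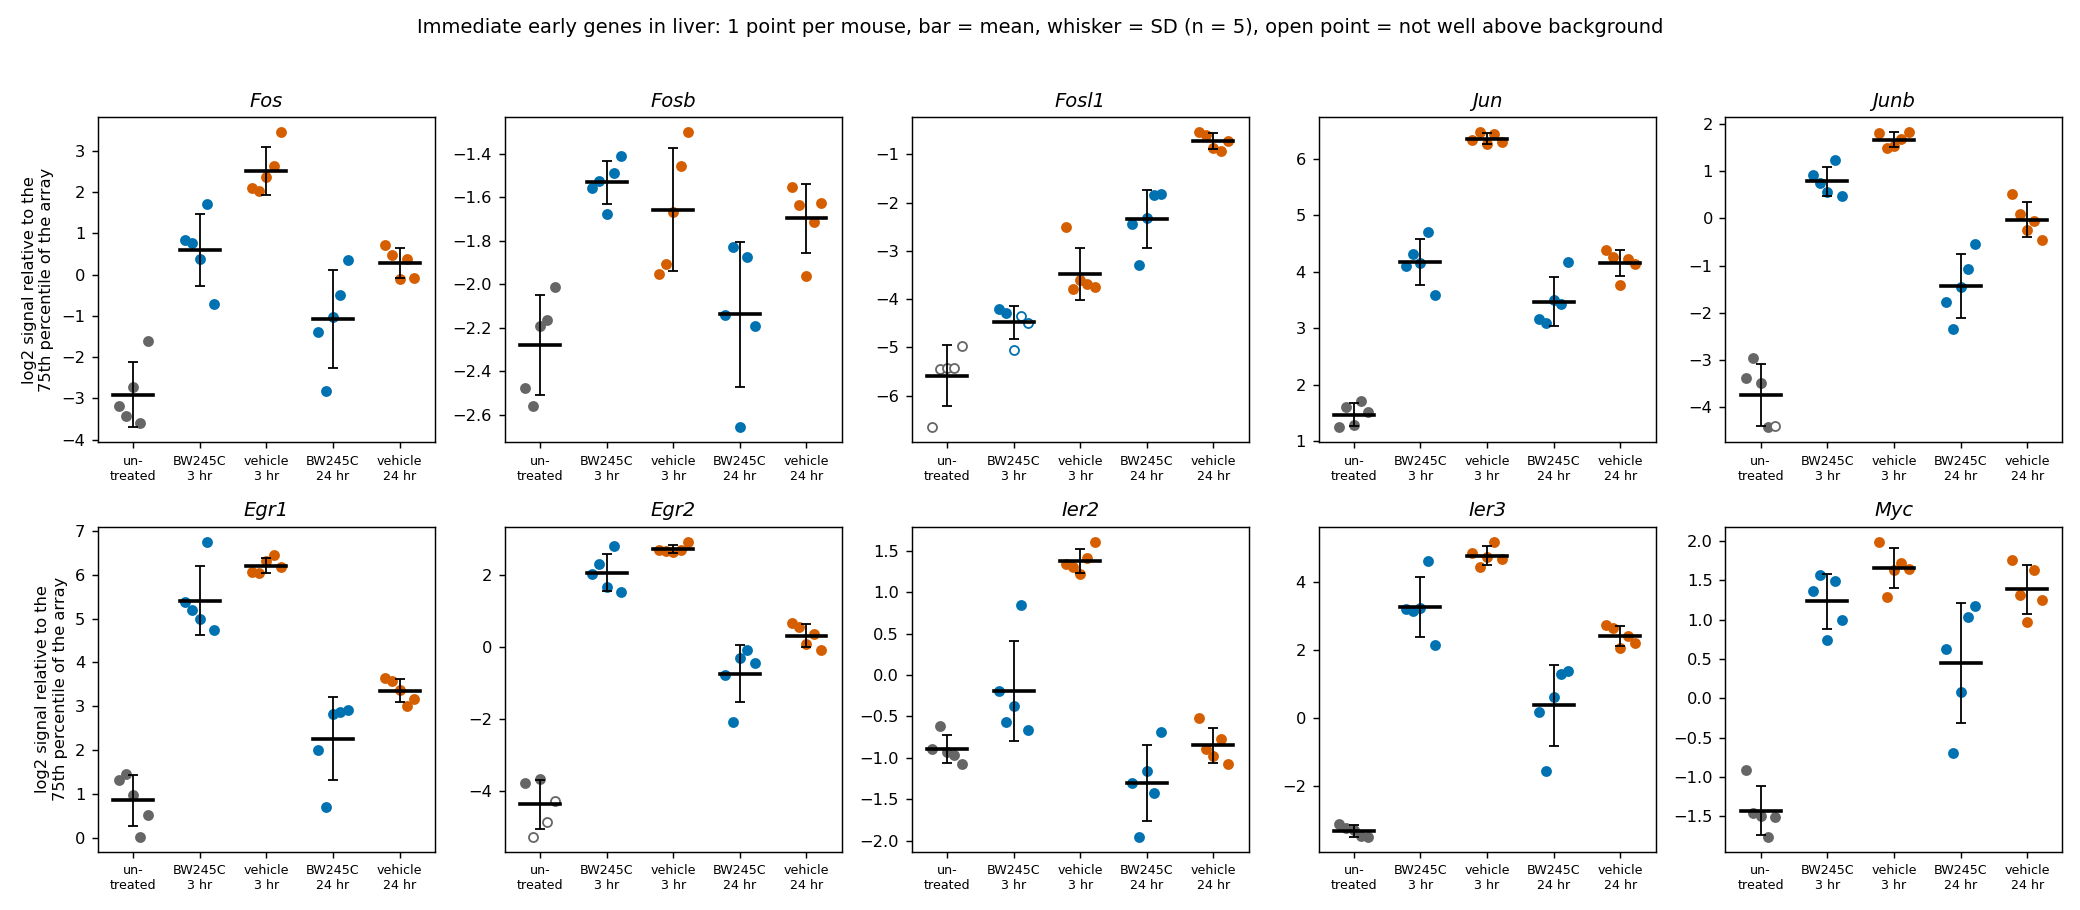
Log2 relative signal (y axis) of each of the 10 genes in every mouse, by group (x axis), with the group mean and SD (n = 5). Open points were not well above background. Fosl1 alone peaked in the ConA + vehicle 24 hr livers, and Ier2 overlapped the untreated livers there.

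The comparison of ConA livers with untreated livers asked how far these genes responded to the lectin, with BW245C and with vehicle. At 3 hr all 10 genes rose in both arms. Ier3 and Egr2 had the largest fitted rises in both arms. Egr2 was well above background on 2 of 5 untreated arrays, so its folds against untreated livers rest partly on values not well above background. Over all alternatives run, the log2 change of Egr2 was 4.09 to 6.72 with BW245C and 4.63 to 7.38 with vehicle. That of Egr1 was 4.22 to 4.73 with BW245C and 5.09 to 5.51 with vehicle. Among the genes whose fold was measured on both sides, Ier2 and Fosb rose least with BW245C and Fosb rose least with vehicle. Of all genes tested, 27.0% passed as higher in the BW245C arm and 25% in the vehicle arm. The median log2 change of the 10 genes, with Fosl1 at its fitted value, was 3.1 with BW245C and 5.12 with vehicle, against -0.18 with BW245C and -0.093 with vehicle over all genes. The 2 arms were set against the same 5 untreated livers, so their values stand side by side and are not independent. Standard errors after ± and adjusted p-values are from a limma fit over all 25 arrays, with Benjamini-Hochberg adjustment over 15104 genes and a threshold of 0.05.

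Among the AP-1 genes, Jun was 6.50-fold higher than untreated at 3 hr in BW245C livers (log2 2.70 ± 0.18) and 29.6-fold higher in vehicle livers (4.89 ± 0.18). Fos was 11.3-fold higher with BW245C (log2 3.50 ± 0.48) and 42.7-fold higher with vehicle (5.41 ± 0.48). Junb was 22.8-fold higher with BW245C and 42.0-fold higher with vehicle. Fosb changed little in size, 1.68-fold with BW245C (limma adjusted p = 0.000109) and 1.54-fold with vehicle (limma adjusted p = 0.000757). Because Fosl1 was not well above background in untreated livers, its fold was counted from the lowest signal well above background of any probe on each untreated array. By that count it was at least 2.30-fold higher with vehicle in the main setting (limma adjusted p = 1.21e-06). Over all alternatives run, the log2 change of Fosl1 with vehicle was 0.52 to 2.27, so the bound holds for the main setting only. With BW245C Fosl1 passed as higher (limma adjusted p = 0.00203), but 3 of the 5 BW245C arrays did not measure it either, and no fold is given.

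Among the other genes, Ier3 was 96.9-fold higher than untreated with BW245C (log2 6.60 ± 0.41) and 276-fold higher with vehicle (8.11 ± 0.41). Egr2 was 87.9-fold higher with BW245C and 139-fold higher with vehicle, and Egr1 was 23.6-fold higher with BW245C and 41.0-fold higher with vehicle. Myc was 6.34-fold higher with BW245C and 8.48-fold higher with vehicle. Ier2 was 1.63-fold higher with BW245C (limma adjusted p = 0.00769) and 4.82-fold higher with vehicle (limma adjusted p = 5.15e-09). The ConA livers did not overlap the untreated ones for 8 genes with BW245C, where 22.9% of all genes lay fully above, and for 10 with vehicle, where 18.2% did. The 2 that overlapped with BW245C were Fosl1 and Ier2.

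With the slide as a block, the 3 hr vehicle arm kept all 10 calls, and 1 array against 4 on slide 1 gave log2 changes from 0.54 (Fosb) to 8.10 (Ier3). On slide 2, with 2 vehicle arrays against 1 untreated array, they ran from 0.63 (Fosb) to 7.99 (Egr2). In the BW245C arm, which shared no slide with untreated arrays, 7 calls were left, as the limma adjusted p was 0.0953 for Fosb, 0.0723 for Fosl1 and 0.418 for Ier2. Over all alternatives run, it ranged over 3.49e-05 to 0.0953 for Fosb, 0.000995 to 0.199 for Fosl1 and 0.00314 to 0.418 for Ier2. Neutrophil markers moved with these genes: the mean over the 9 measured markers was 0.88 to 2.43 in ConA + BW245C 3 hr livers and 1.44 to 2.67 in ConA + vehicle 3 hr livers, against -2.92 to -2.59 in untreated livers (log2 relative signal). Of the 9, Cxcr2, Mmp8, Ngp and Ltf were not above background in untreated livers. Platelet markers were higher than untreated for 4 of 5 with BW245C and 5 with vehicle, and T and NK lymphocyte markers for 6 of 8 in both arms. Kupffer cell markers were lower for 4 of 6 with BW245C and 3 with vehicle, and sinusoidal endothelium markers for 6 of 7 with BW245C and 4 with vehicle. Of all 15104 genes, 6393 were lower than untreated with BW245C and 5596 with vehicle. The part of these cells in the result was not tested.

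At 24 hr 8 of the 10 genes were higher than untreated with BW245C (22.7% of all genes) and 9 with vehicle (29.8%), and none was lower, whereas 33.8% of all genes were lower with BW245C and 39.1% with vehicle. The median log2 change of the 10 genes was 1.94 with BW245C and 3.00 with vehicle, against -0.086 with BW245C and -0.082 with vehicle over all genes. Fosl1, the late member, was at least 5.02-fold higher with BW245C and at least 15.3-fold higher with vehicle, by the same count. Over all alternatives run, the log2 change of Fosl1 was 0.79 to 3.48 with BW245C and 1.90 to 5.20 with vehicle. These bounds therefore hold for the main setting only. Ier3 was 13-fold higher with BW245C (log2 3.70 ± 0.41) and 53.6-fold higher with vehicle (5.75 ± 0.41). Egr2 was 12.4-fold and Junb 4.92-fold higher with BW245C, whereas the vehicle arm gave 26.1-fold for Egr2 and 13-fold for Junb. The folds of Egr2 again rest on untreated livers where 2 of 5 arrays were well above background.

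Fos was 3.56-fold higher than untreated at 24 hr with BW245C (limma adjusted p = 0.00237) and 9.12-fold higher with vehicle. Jun was 4.00-fold higher with BW245C and 6.43-fold higher with vehicle, and Myc was 3.66-fold higher with BW245C and 7.03-fold higher with vehicle. Egr1 was 2.65-fold higher with BW245C (limma adjusted p = 0.00268) and 5.66-fold higher with vehicle. Fosb had a log2 change of 0.14 ± 0.15 with BW245C, which did not pass (limma adjusted p = 0.425), and rose 1.50-fold with vehicle (limma adjusted p = 0.00119). Ier2 passed in neither arm, with -0.41 ± 0.22 (limma adjusted p = 0.119) in the BW245C arm and 0.047 ± 0.22 (limma adjusted p = 0.858) in the vehicle arm, a value whose sign turned under quantile normalization. Without ConA + BW245C 24 hr mouse 5, Ier2 passed as lower than untreated (-0.57, limma adjusted p = 0.0330).

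The 24 hr livers did not overlap the untreated ones for 6 genes with BW245C, where 16.7% of all genes lay fully above, and for 9 with vehicle, where 27.4% did. With the slide as a block, Fos (limma adjusted p = 0.0605) and Egr1 (limma adjusted p = 0.0854) lost their calls in the BW245C arm, and Fosb (limma adjusted p = 0.232) in the vehicle arm. Over all alternatives run, the adjusted p ranged over 0.000139 to 0.0605 for Fos, 5.47e-05 to 0.0854 for Egr1 and 0.0330 to 0.525 for Ier2 with BW245C, and 7.10e-05 to 0.232 for Fosb with vehicle. On slide 2, the 1 BW245C array stood at log2 2.40 for Fos, 1.37 for Egr1 and 4.98 for Egr2 over the 1 untreated array. Untreated and ConA + vehicle 24 hr arrays shared none of the slides.

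Cell type markers also differed from untreated livers at 24 hr. Of all genes, 22.7% were higher and 33.8% lower with BW245C, and 29.8% higher and 39.1% lower with vehicle. Neutrophil markers were higher for 7 of 9 in both arms, with 1 lower with BW245C, at a median log2 change of 4.45 with BW245C and 6.26 with vehicle. Monocyte markers were higher for 4 of 5 in both, with medians of 3.86 with BW245C and 4.90 with vehicle. T and NK lymphocyte markers were higher for 7 of 8 and B cell markers for 4 of 4 in both arms, and platelet markers for 1 of 5 with BW245C and 3 with vehicle. Hepatocyte markers were lower for 6 of 7 with BW245C and 7 with vehicle. Kupffer cell markers were lower for 5 of 6 in both, with 1 higher with BW245C, and sinusoidal endothelium markers for 5 of 7 with BW245C and 6 with vehicle, where 1 was higher. The part of these cells in the values of the 10 genes was not tested.

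Between 3 hr and 24 hr most of the genes came down. Lower at 24 hr than at 3 hr were 9 genes in the BW245C arm (34.3% of all genes) and 7 in the vehicle arm (35.3%), and Fosl1 was the 1 gene that rose in each (35.8% of all genes rose with BW245C and 33.2% with vehicle). Fosl1 was 4.40-fold higher at 24 hr than at 3 hr in BW245C livers (log2 2.14 ± 0.29) and 6.68-fold higher in vehicle livers (2.74 ± 0.29), where the BW245C value rests on 2 of 5 arrays well above background at 3 hr. Egr1 was 8.91-fold lower with BW245C and 7.25-fold lower with vehicle. Ier3 was 7.44-fold lower with BW245C and 5.15-fold lower with vehicle.

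Jun was 1.63-fold lower at 24 hr than at 3 hr with BW245C (log2 -0.70 ± 0.18) and 4.61-fold lower with vehicle (-2.20 ± 0.18), and Ier2 was 2.16-fold lower with BW245C and 4.67-fold lower with vehicle. Myc stayed high in vehicle livers, where its change of -0.27 ± 0.26 did not pass (limma adjusted p = 0.376), and it was 1.73-fold lower with BW245C (limma adjusted p = 0.0110). Fosb changed by -0.61 ± 0.15 with BW245C (limma adjusted p = 0.000858) and had a value of -0.04 ± 0.15 with vehicle, which did not pass (limma adjusted p = 0.821). The vehicle values of Myc and Fosb changed sign under the scaling of the series matrix. The 24 hr and 3 hr livers did not overlap for 7 genes in the BW245C arm, 6 of them lower (24.6% of all genes lay fully below and 27.5% fully above), and for 8 in the vehicle arm, 7 of them lower (27.4% below and 24.9% above). Only slide 3 held both times of the vehicle arm, with 1 array of 24 hr against 2 of 3 hr, and there Fosl1 stood at 3.18, Jun at -1.98 and Egr1 at -2.68.

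The BW245C arrays of 24 hr and of 3 hr shared no slide. With the slide as a fixed block, 8 of the 10 calls in the BW245C arm were left, 1 higher and 7 lower. Fos (-1.13, limma adjusted p = 0.194) and Myc (-0.74, limma adjusted p = 0.154) did not pass, nor did they with the slide as a random block (limma adjusted p = 0.0678 for Fos and 0.0821 for Myc). The series matrix scaling also left 8 calls, without Fosb (limma adjusted p = 0.0578) and Myc (0.0756). Over all alternatives run, the limma adjusted p ranged over 0.000668 to 0.194 for Fos, 0.000156 to 0.0578 for Fosb and 0.00263 to 0.154 for Myc. In the vehicle arm both ways of blocking on the slide gave 8 calls again.

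Markers of several cell types differed between the times. Of all genes, 34.3% were lower and 35.8% higher at 24 hr than at 3 hr with BW245C, and 35.3% lower and 33.2% higher with vehicle. Monocyte markers were higher at 24 hr than at 3 hr for 4 of 5 in both arms, with a median log2 change of 2.88 with BW245C and 3.23 with vehicle. T and NK lymphocyte markers were higher for 5 of 8 and lower for 1 with BW245C and higher for 6 with vehicle, and B cell markers were higher for 3 of 4 in both. Neutrophil markers were lower for 5 of 9 with BW245C, whereas with vehicle 4 were higher and 1 was lower. Platelet markers were lower for 4 of 5 in both arms, and hepatocyte markers for 6 of 7 with BW245C and 7 with vehicle. Kupffer cell markers were lower for 5 of 6 in both, with 1 higher with BW245C, and sinusoidal endothelium markers for 3 of 7 in both, with 2 higher with vehicle. The endothelium counts with vehicle were near the shares of all genes. The part of these cells in the changes of the 10 genes was not tested.

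**Figure D2:**
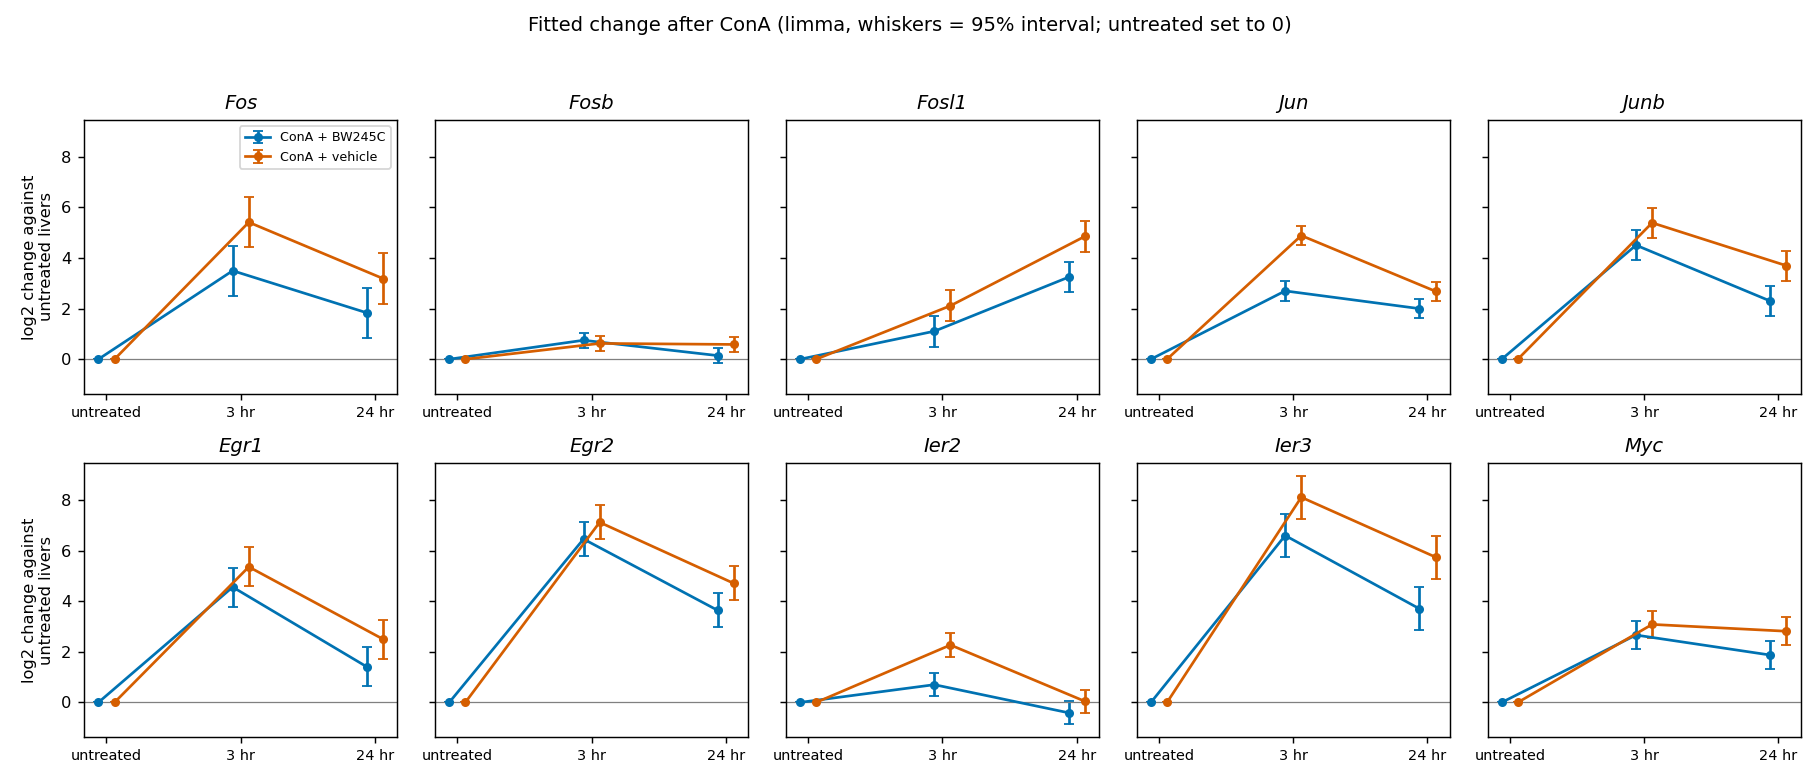
Log2 change of each gene against untreated livers (y axis) at 3 hr and 24 hr (x axis) in the ConA + BW245C and ConA + vehicle arms, from the limma fit with 95% intervals. Most lines come down between 3 hr and 24 hr, whereas Fosl1 climbs in both arms. The points of Fosl1 are fitted against untreated arrays where its probe was not well above background. Its bounds at 24 hr, in the main setting only, were at least 5.02-fold with BW245C and 15.3-fold with vehicle.

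The levels of the groups ran in 1 order for 6 of the genes (Fos, Jun, Junb, Egr1, Egr2 and Ier3), with untreated lowest, then ConA + BW245C 24 hr, ConA + vehicle 24 hr, ConA + BW245C 3 hr and ConA + vehicle 3 hr. In that order the ConA + BW245C 3 hr and ConA + vehicle 24 hr livers overlapped for Fos, Jun, Junb and Ier3. The means of Jun in these groups were 4.17 ± 0.40 at 3 hr with BW245C and 4.16 ± 0.23 at 24 hr with vehicle (SD, n = 5 each), a pair for which no test was designed. Egr1 and Egr2 did not overlap between those groups. Myc differed from the order only in that its ConA + vehicle 24 hr mean (1.38 ± 0.32) stood above its ConA + BW245C 3 hr mean (1.23 ± 0.35), with overlapping mice. Fosl1 was ordered by time first, and Ier2 had its lowest mean in ConA + BW245C 24 hr livers (-1.30 ± 0.46), although these overlapped untreated livers (-0.89 ± 0.17).

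The comparison of ConA + BW245C with ConA + vehicle livers at 3 hr asked what the DP1 agonist changed early. Jun, Fos, Ier2, Ier3, Fosl1 and Junb were lower with BW245C, and no gene of the set was higher. The 6 calls compare with 16.9% of all genes called lower and 11.8% called higher. Under the scaling of the series matrix 5 of the 10 were called, all lower, while all genes split into 2871 higher and 1754 lower, in place of 1776 higher and 2547 lower. The median log2 difference of the 10 genes was -0.95, against -0.037 over all genes, and 9 of 10 values lay below 0. Fully separate groups were found for 5 of the 10 genes (Fos, Fosl1, Jun, Junb and Ier2), all lower, against 9.50% of all genes.

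Jun differed most: it averaged 4.17 ± 0.40 with BW245C and 6.36 ± 0.09 with vehicle (SD, n = 5 each) and was 4.56-fold lower (log2 -2.19 ± 0.18, limma adjusted p = 4.79e-08). Fos was 3.77-fold lower (log2 -1.92 ± 0.48, limma adjusted p = 0.00551). Ier2 was 2.97-fold lower (-1.57 ± 0.22, limma adjusted p = 2.96e-05), which left it 1.63-fold above untreated, where vehicle livers stood 4.82-fold above. Ier3 was 2.85-fold lower (-1.51 ± 0.41, limma adjusted p = 0.00948) although mouse 4 lay among the vehicle livers.

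Fosl1 was 2.01-fold lower with BW245C at 3 hr (log2 -1.01 ± 0.29, limma adjusted p = 0.0138), with 2 of 5 BW245C arrays and 5 of 5 vehicle arrays well above background. Without ConA + vehicle 3 hr mouse 1, which stood above its group, its limma adjusted p was 0.0527 (log2 -0.77). Junb was 1.85-fold lower (-0.88 ± 0.29, limma adjusted p = 0.0247), and lost its call without vehicle mouse 1 (0.0547), BW245C mouse 3 (0.0546) or BW245C mouse 5 (0.0609). The size of its difference hardly moved in these fits.

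The remaining 4 genes did not pass at 3 hr. Egr1 differed by -0.80 ± 0.37 (95% interval -1.57 to -0.026, limma adjusted p = 0.109), and without BW245C mouse 4 it passed (-1.13, limma adjusted p = 0.0184). Egr2 differed by -0.66 ± 0.32 (interval -1.34 to 0.0095, limma adjusted p = 0.126). The interval of Myc was -0.97 to 0.13 around -0.42 (limma adjusted p = 0.238). Fosb had the only positive value, 0.13 ± 0.15 (interval -0.18 to 0.43, limma adjusted p = 0.548), and that value turned negative with the slide as a block (-0.20).

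In a fit that took the slide as a block, 4 of the 6 calls of 3 hr were kept. They were Jun (-2.20, limma adjusted p = 3.61e-06), Ier2 (-1.68, 0.000373), Fos (-2.30, 0.0114) and Junb (-1.04, 0.0339), whereas Ier3 (-1.59) and Fosl1 (-0.84) had limma adjusted p-values of 0.0541 and 0.166. Within slide 3, where 5 BW245C arrays met 2 vehicle arrays, the log2 differences were -2.45 for Fos, -2.19 for Jun, -1.70 for Ier2, -1.66 for Ier3, -0.97 for Junb and -0.76 for Fosl1. They were -0.90 for Egr1, -0.75 for Egr2, -0.45 for Myc and -0.15 for Fosb, so that all 10 were below 0 on that slide. Jun alone passed on those 7 arrays (limma adjusted p = 0.0203). Over all alternatives run, including each mouse left out, the limma adjusted p ranged over 9.51e-09 to 0.0203 for Jun, 4.06e-07 to 0.0700 for Ier2, 0.000738 to 0.0776 for Fos and 0.00172 to 0.164 for Ier3. It ranged over 0.00232 to 0.0613 for Junb, 0.00772 to 0.166 for Fosl1 and 0.0184 to 0.363 for Egr1.

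Of the cell type marker lists, none of 9 neutrophil, 4 B cell, 6 Kupffer cell, 5 monocyte or 7 sinusoidal endothelium markers passed between the 3 hr groups. Platelet markers were lower for 3 of 5, with a mean of -1.95 to -1.58 in BW245C livers and -1.27 to -1.09 in vehicle livers, against -3.18 to -3.08 in untreated livers (log2 relative signal). Of 8 T and NK lymphocyte markers, 2 were higher and 1 was lower, and 2 of 7 hepatocyte markers were higher. Of all genes, 16.9% were lower and 11.8% higher. The part of platelet RNA in the result was not tested.

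At 24 hr, 9 of the 10 genes were lower in ConA + BW245C than in ConA + vehicle livers, where 8.95% of all genes were called lower, and none was higher, where 17.6% of all genes were. Ier2 was the exception. The series matrix scaling also gave 9 lower, while all genes split into 1957 higher and 2615 lower, in place of 2661 higher and 1352 lower. The median log2 difference of the 10 genes was -1.08, against 0.014 over all genes. The groups did not overlap for 5 genes (Fosl1, Junb, Egr1, Egr2 and Ier3), against 5.41% of all genes fully below.

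Ier3 was 4.12-fold lower with BW245C (log2 -2.04 ± 0.41, limma adjusted p = 0.000898) and averaged 0.37 ± 1.20 against 2.41 ± 0.28 with vehicle (SD, n = 5 each). Fosl1 was 3.05-fold lower (-1.61 ± 0.29, limma adjusted p = 0.000359). Junb was 2.64-fold lower (-1.40 ± 0.29, limma adjusted p = 0.00100). These 3 genes, with Jun, made up the 4 that passed at a stricter threshold of 0.01. Jun was 1.61-fold lower (-0.69 ± 0.18, limma adjusted p = 0.00792).

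Myc was 1.92-fold lower with BW245C at 24 hr (-0.94 ± 0.26, limma adjusted p = 0.0110). Egr2 was 2.10-fold lower (-1.07 ± 0.32, limma adjusted p = 0.0179), and Egr1 2.14-fold lower (-1.10 ± 0.37, limma adjusted p = 0.0329). Fos was 2.56-fold lower (-1.36 ± 0.48, limma adjusted p = 0.0397), and Fosb 1.36-fold lower (-0.44 ± 0.15, limma adjusted p = 0.0287). Ier2 differed by -0.46 ± 0.22 (95% interval -0.92 to 0.00079, limma adjusted p = 0.130).

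Several of these calls depended on which mice were included. Left out in turn, 6 of the 10 mice ended the call of Fos (vehicle mice 1, 2 and 4 and BW245C mice 1, 2 and 3, limma adjusted p 0.0696 to 0.135). For Fosb 6 did so (vehicle mice 1, 2, 4 and 5 and BW245C mice 3 and 5, 0.0503 to 0.110), and for Egr1 5 (vehicle mice 1, 2 and 3 and BW245C mice 1 and 2, 0.0518 to 0.113). Egr2 lost its call without vehicle mouse 1 or BW245C mouse 2 (0.0506 to 0.0637). Ier2 passed without BW245C mouse 5 (-0.61, limma adjusted p = 0.0433). Ier3, Fosl1, Junb, Jun and Myc kept their calls whichever mouse was left out. Over all alternatives run, Myc passed under 22 of 25 (limma adjusted p 0.00320 to 0.149) and Ier3 under 24 of 25 (0.000372 to 0.0632). Fosl1, Jun and Junb passed under every alternative that held them.

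Taking the slide as a block gave 9 calls at 24 hr, Ier2 in place of Fosb: Ier2 stood at -0.61 (limma adjusted p = 0.0482) and Fosb at -0.27 (0.0567). The only array of slide 5, of BW245C mouse 5, carried no weight in that fit. Within slide 4, with 3 BW245C arrays against 4 vehicle arrays, the differences were -2.38 for Ier3, -1.75 for Fosl1, -1.74 for Fos, -1.55 for Junb and -1.43 for Egr1. They were -1.22 for Egr2, -0.97 for Myc, -0.88 for Jun, -0.63 for Ier2 and -0.21 for Fosb. Fosl1, Jun and Junb passed on those 7 arrays. Over all alternatives run, the limma adjusted p ranged over 0.00939 to 0.135 for Fos, 0.0157 to 0.298 for Fosb, 0.0193 to 0.113 for Egr1, 0.00227 to 0.115 for Egr2 and 0.0433 to 0.334 for Ier2.

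Neutrophil markers moved with these genes at 24 hr. Of 9 measured, 6 were lower with BW245C, with a median log2 difference of -1.71, and their mean was 0.41 to 1.42 in BW245C livers and 2.02 to 2.52 in vehicle livers. All 9 were above background in both groups. Hepatocyte markers were higher for 3 of 7, with means of 7.84 to 8.41 in BW245C livers and 7.58 to 8.09 in vehicle livers, as were Kupffer cell markers for 1 of 6 and sinusoidal endothelium markers for 2 of 7. Of 5 monocyte and 8 lymphocyte markers, 1 each was lower, and none of 4 B cell or 5 platelet markers passed. Of all genes, 8.95% were lower and 17.6% higher. The part of these cells in the lower immediate early genes was not tested.

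**Figure D3:**
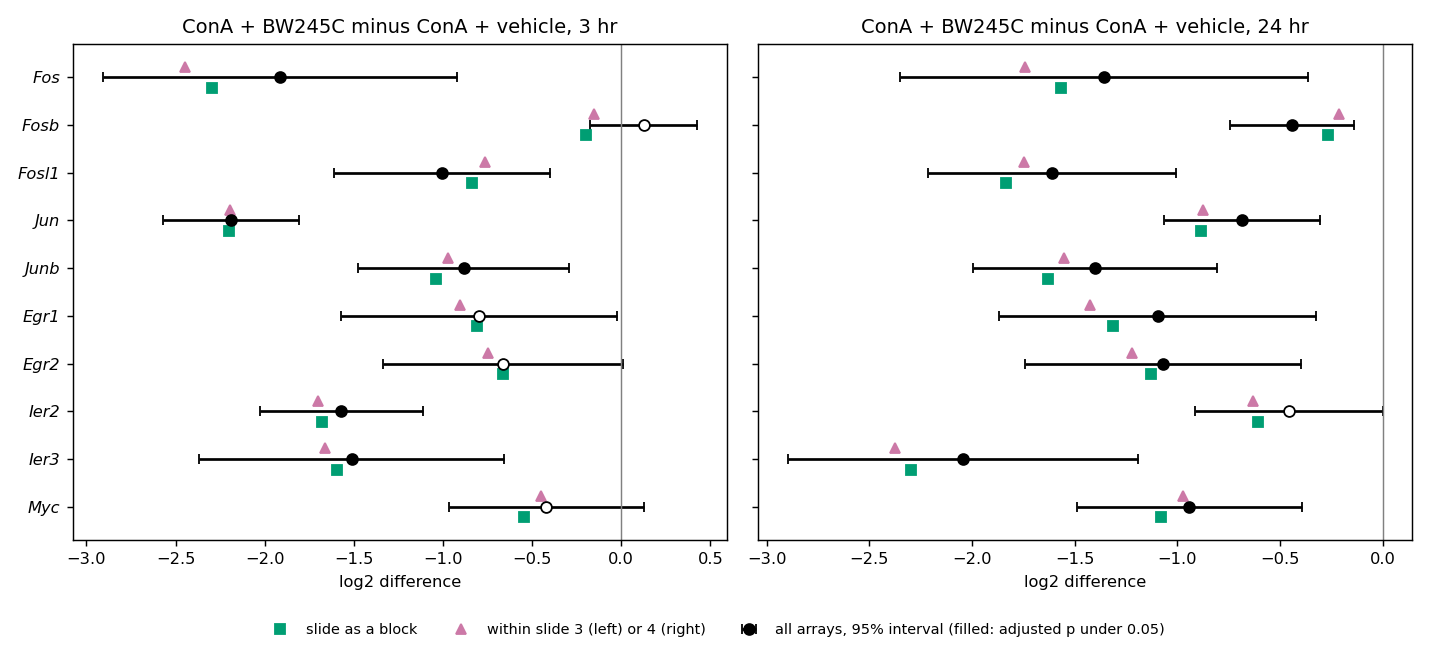
Log2 difference of ConA + BW245C minus ConA + vehicle livers (x axis) for each gene (y axis) at 3 hr and 24 hr. Circles with 95% intervals are from all arrays (filled where called), squares from the fit with slides as blocks, and triangles from slide 3 at 3 hr or slide 4 at 24 hr. Apart from Fosb over all arrays at 3 hr, all values lie below 0, and Jun at 3 hr has the largest difference over all arrays.

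The agonist's difference was then set against itself, 24 hr minus 3 hr. For 3 of the 10 genes this difference of differences passed, 2 higher (19.3% of all genes) and 1 lower (10.8%). Jun gave 1.50 ± 0.26 (limma adjusted p = 0.000421), as it was 1.61-fold lower with BW245C at 24 hr and 4.56-fold lower at 3 hr. Ier2 gave 1.11 ± 0.31 (limma adjusted p = 0.0122). Fosb gave -0.57 ± 0.21 (limma adjusted p = 0.0424), having been lower with BW245C at 24 hr only.

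Jun passed under all 34 alternative settings and mice left out for this test (limma adjusted p 0.000212 to 0.0103), and Ier2 under 32 of 34 (0.000659 to 0.0827). Fosb passed under 13 of 34 (0.0170 to 0.855), lost its call without any 1 of 14 of the 20 mice, and stood at -0.067 with the slide as a block (limma adjusted p = 0.855), where Ier2 had an adjusted p of 0.0827. The other 7 genes did not pass. Their values ran from -0.60 (Fosl1, interval -1.46 to 0.25) to 0.56 (Fos, interval -0.84 to 1.96), so that a difference between the times of the size seen for Jun lay inside the interval of Fos.

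In 3 of the ConA groups single mice stood high or low for many of the genes at once. In the ConA + BW245C 3 hr group, mouse 4 was the highest for 7 of 10 genes and above the group mean for 10, and mouse 5 was the lowest for 7. In the ConA + BW245C 24 hr group, mouse 2 was the lowest for 9 genes and mouse 5 the highest for 8. In the ConA + vehicle 24 hr group, mouse 1, the only array of that group on slide 3, was the highest for all 10. In the ConA + vehicle 3 hr group mouse 5 was the highest for 5 genes and mouse 2 the lowest for 6, while no untreated mouse was the highest for more than 3 genes or the lowest for more than 4. The median deviation from the group mean was 0.63 for ConA + BW245C mouse 4 at 3 hr and -1.04 for ConA + BW245C mouse 2 at 24 hr (log2).

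The SD between mice was larger with BW245C than with vehicle in the median of the 10 genes at both times. The median SD of the 10 genes was 0.46 in ConA + BW245C 3 hr livers and 0.21 in ConA + vehicle 3 hr livers, while all genes had a median SD of 0.18 with BW245C and 0.26 with vehicle. At 24 hr the 10 genes had a median SD of 0.72 with BW245C and 0.27 with vehicle, and all genes had 0.23 with BW245C and 0.16 with vehicle. It was 0.45 in untreated livers, with 0.13 over all genes. The difference in spread was not tested. The 10 spots of Fos within an array had a median SD of 0.067, far below the SD between mice of 0.87 in ConA + BW245C 3 hr and 0.58 in ConA + vehicle 3 hr livers.

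Markers of several cell types ran partly with the same mice in the BW245C groups. The neutrophil mean in BW245C mice 1 to 5 was 1.88, 2.43, 1.31, 2.39 and 0.88 at 3 hr, lowest in mouse 5. At 24 hr it was 1.15, 0.41, 0.66, 1.24 and 1.42, lowest in mouse 2 and highest in mouse 5. In the 24 hr vehicle livers it was 2.51, 2.48, 2.27, 2.52 and 2.02, and mouse 1 did not stand apart. In the 3 hr vehicle livers it was 2.67, 2.24, 1.76, 1.44 and 1.68, whereas mouse 5 was most often the highest for the 10 genes. The monocyte mean in BW245C livers of 3 hr was highest in mouse 4 (-1.02) and lowest in mouse 5 (-1.98). At 24 hr it was lowest in mouse 2 (0.80) and highest in mouse 4 (1.39). In vehicle livers it was highest in mouse 1 at 3 hr (-0.94) and lowest in mouse 1 at 24 hr (1.33). Of the other lists in BW245C livers, platelet (-1.95) and B cell markers (-3.46) were also lowest in mouse 5 at 3 hr, and platelet markers were highest in mouse 4 (-1.58). T and NK lymphocyte (0.084) and B cell markers (-2.14) were also lowest in mouse 2 at 24 hr. Hepatocyte, Kupffer cell and sinusoidal endothelium markers were lowest in other mice at both times, as were T and NK lymphocyte markers at 3 hr and platelet markers at 24 hr. The part of these cells in the spread of the 10 genes was not tested.

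**Figure D4:**
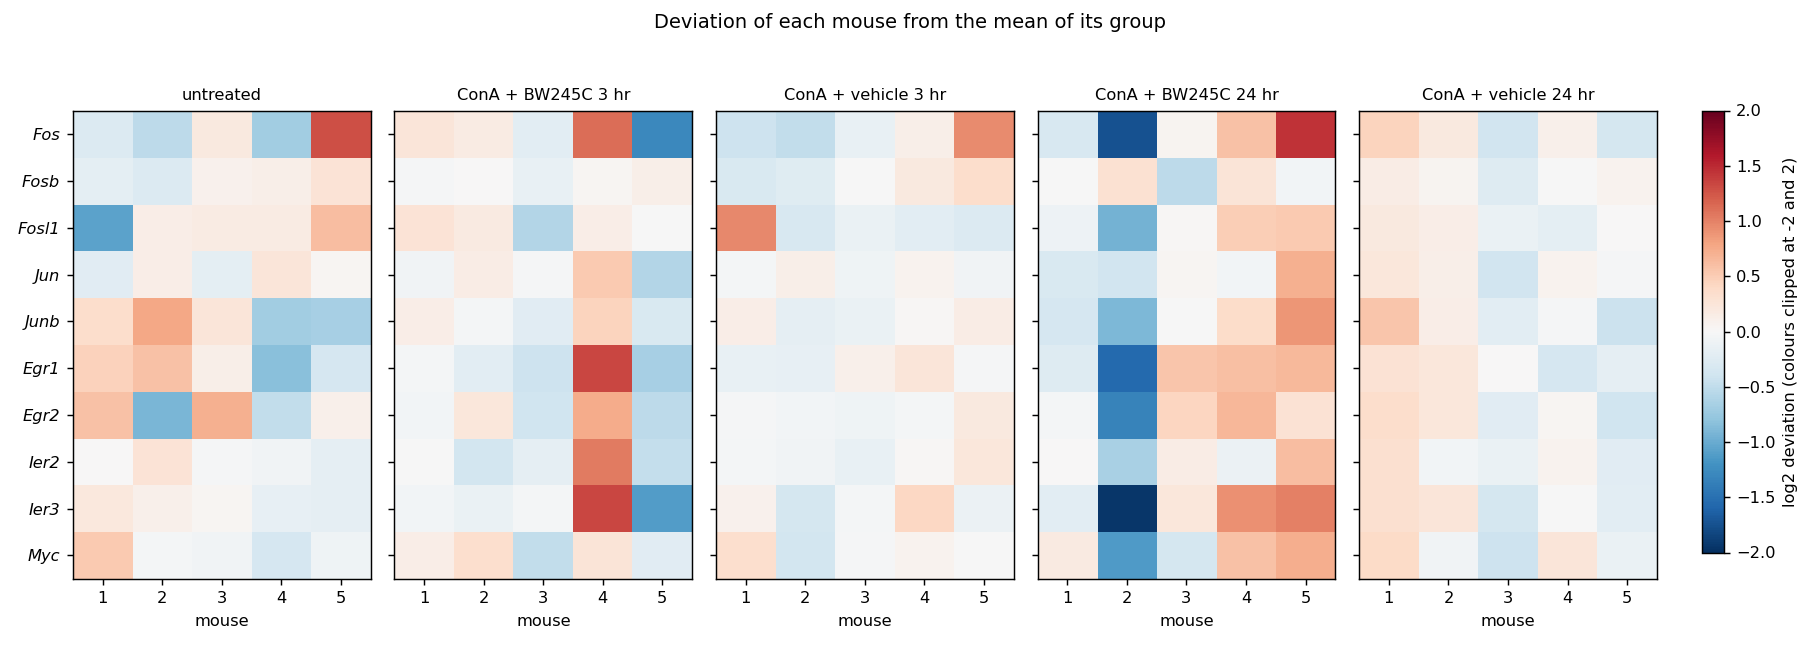
Deviation of each mouse (x axis) from the mean of its group, in log2 units, for each gene (y axis). Columns of 1 colour are mice that stood high or low for most genes, as ConA + BW245C mouse 4 at 3 hr and mouse 2 at 24 hr.

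Further immediate early genes outside the set mostly rose at 3 hr after ConA, and none passed as higher with BW245C than with vehicle. This list and those below were chosen with earlier results of these data known, so they are no independent test of the set. Of 30 measured, 17 were higher and 5 lower than untreated at 3 hr with BW245C, and 23 were higher and 1 lower with vehicle. At 24 hr 11 were higher and 5 lower than untreated with BW245C (median 0.21), where 22.7% of all genes were higher and 33.8% lower. With vehicle 20 were higher and 4 lower (median 0.74), where 29.8% of all genes were higher and 39.1% lower. Gadd45b, a stress-induced growth arrest gene, was 4.33 ± 0.29 above untreated at 3 hr with BW245C and 5.90 ± 0.29 with vehicle on the log2 scale. The antiproliferative gene Btg2 was 3.97 ± 0.27 above untreated at 3 hr with BW245C and 5.61 ± 0.27 with vehicle. Between BW245C and vehicle at 3 hr, 19 of the 30 were lower and none higher, with a median of -0.67, where 16.9% of all genes were lower and 11.8% higher and their median was -0.037. The matricellular genes Ccn1 (-2.11 ± 0.19) and Ccn2 (-1.79 ± 0.26) differed most, followed by Btg2 (-1.64 ± 0.27). At 24 hr 15 were lower and none higher, with a median of -0.48, against 8.95% of all genes lower, 17.6% higher and a median of 0.014. The differences were led by Gadd45a (-1.41 ± 0.30), Csrnp1 (-1.39 ± 0.20) and Gadd45b (-1.35 ± 0.29).

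Other partners of AP-1 with a basic leucine zipper moved in both directions. Of 13 measured, 9 rose and 3 fell at 3 hr with BW245C, and 8 rose and 3 fell with vehicle. Atf3, a stress-induced factor that pairs with Jun, was 5.03 ± 0.36 above untreated with BW245C and 6.89 ± 0.36 with vehicle, and the small Maf gene Maff 5.80 ± 0.31 with BW245C and 6.45 ± 0.31 with vehicle. Between BW245C and vehicle livers of 3 hr, 3 of the 13 were lower and 1 was higher, against 16.9% and 11.8% of all genes, and their median was -0.17, with Atf3 at -1.86 ± 0.36 (limma adjusted p = 0.000682). At 24 hr 7 were lower and 2 higher (median -0.41), against 8.95% and 17.6% of all genes, with Maff at -1.71 ± 0.31 and Atf3 at -1.64 ± 0.36.

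Known AP-1 target genes were lower with BW245C for 6 of 18 at 3 hr and for 10 of 18 at 24 hr, with medians of -0.37 at 3 hr and -0.96 at 24 hr, and none was higher. The lower calls compare with 16.9% of all genes at 3 hr and 8.95% at 24 hr. The monocyte attractant Ccl2 differed by -1.92 ± 0.36 at 24 hr (limma adjusted p = 0.000440). Against untreated, 11 of the 18 rose and 3 fell at 3 hr with BW245C, and 11 rose and none fell with vehicle.

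Of 16 known Myc targets, 7 were lower and 1 was higher with BW245C than with vehicle at 3 hr, and 3 were lower at 24 hr, with medians of -0.22 at 3 hr and -0.16 at 24 hr. At 24 hr Odc1, the rate-limiting enzyme of polyamine synthesis, differed by -0.59 ± 0.13. The nucleolar gene Nop58 was 2.21 ± 0.13 above untreated at 3 hr with BW245C and 2.81 ± 0.13 with vehicle. Genes of the kinases and factors upstream were split, 8 of 25 lower and 3 higher with BW245C at 3 hr (median -0.12), and 5 lower and 6 higher at 24 hr (median 0.020). Mapk8, which encodes the Jun kinase JNK1, was lower at 3 hr (-1.11 ± 0.17, limma adjusted p = 7.16e-05). Map3k8, a kinase of the ERK pathway, was lower at 24 hr (-0.82 ± 0.21). Of 12 corepressors and partners of Egr and Myc, 4 were lower and 2 higher at 3 hr, with Max, the partner of Myc, at -0.99 ± 0.11, and 1 was lower and 3 higher at 24 hr, with the Myc antagonist Mxd1 at -1.80 ± 0.25. Their median was -0.20 at 3 hr and -0.090 at 24 hr. For these lists too, 16.9% of all genes were lower and 11.8% higher at 3 hr, and 8.95% lower and 17.6% higher at 24 hr.

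**Figure D5:**
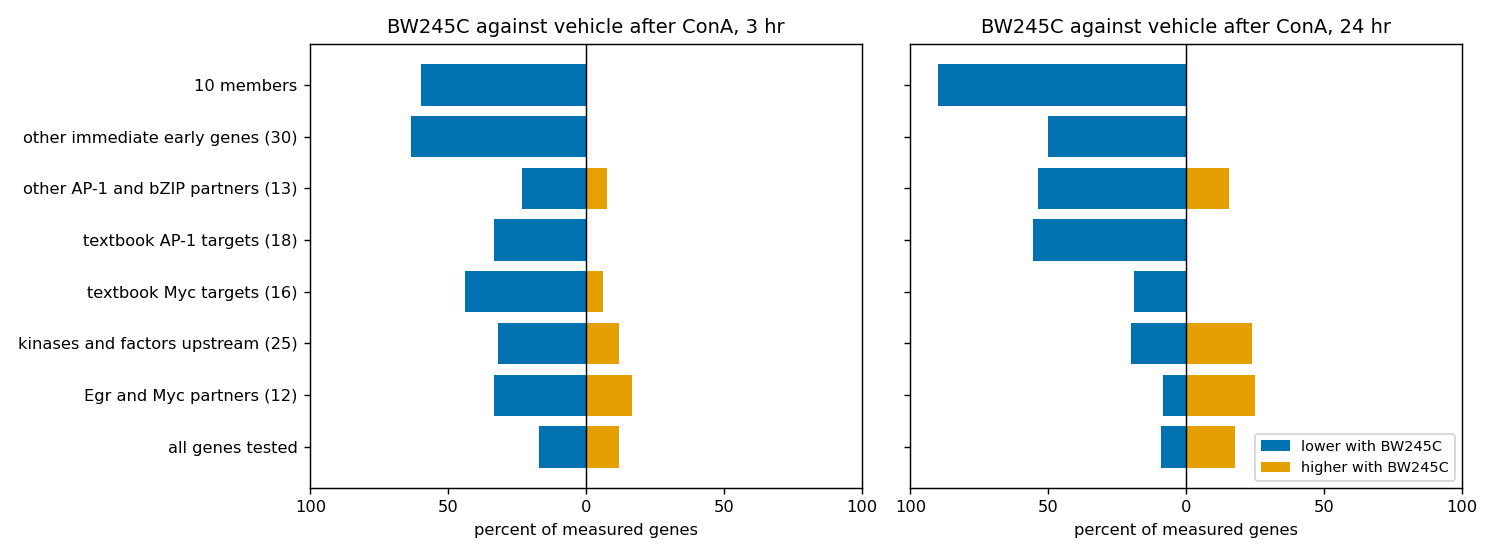
Percent of the measured genes of each list (y axis, number measured in brackets) called lower (left) or higher (right) with BW245C than with vehicle after ConA at 3 hr and 24 hr (x axis), beside all genes tested. Immediate early genes, inside and outside the set of 10, and AP-1 target genes have only lower calls at both times. The lists were chosen with earlier results of these data known.

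The genes whose pattern over the 5 group means was most like that of a member were found by the root mean square of the differences between centred log2 means. The nearest to Fos was Btg2 (0.17), to Jun Zbtb7c (0.22), to Junb the costimulatory receptor gene Cd40 (0.10) and to Egr1 Steap4 (0.11). Egr2 lay nearest to the chemokine gene Ccl4 (0.21) and then to Ifng (0.23), which encodes interferon gamma. Ier3 lay nearest to Hcar2 (0.29) and Myc to Wdr92 (0.071). For Ier2 the nearest was Chsy3 (0.18) and for Fosb Diras2 (0.041), where a small value comes with the small range of Fosb. Among the members the closest pairs were Fos with Jun (0.36) and Fos with Junb (0.38). No likeness is given for Fosl1, whose untreated mean was not well above background. Zbtb7c was well above background on 17 arrays, Ifng on 21 and Egr2 on 22, so their distances rest partly on values not well above background. These distances rest on 5 means from the same arrays and describe likeness only.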

How the data were processed

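Liver RNA of 25 mice was hybridised to single-colour Agilent mouse arrays. The deposited scanner files hold spot intensities: the processed intensity is background-subtracted by Agilent Feature Extraction 10.7.3.1, per the file headers, while the submitters' processing notes name version 9.1. Probe coordinates of the design refer to mm9, and none is printed. The members and gene lists were chosen with earlier results of these data known.

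Control spots and spots flagged as outliers were left out, spots of a probe were averaged, and log2 of the processed signal minus log2 of the array's 75th percentile was taken. A probe had to be well above background on 5 or more arrays, and a gene was represented by its brightest probe, which left 15104 genes. In limma 3.58.1 (R 4.3.3), 1 mean per group was fitted to the 25 arrays together, with Benjamini-Hochberg adjustment over all genes and a threshold of 0.05. Changes against groups with no array well above background were given as bounds, in the main setting only. The bounds were counted from the lowest signal well above background of any probe on each array. Symbols came from RefSeq accessions, and 26582 of 55681 probes had one. All 10 members are named, and of each further list at most 3 called genes with the largest absolute log2 change per comparison. The fit was tested on simulated data. Alternatives were quantile normalization, the percentile over probes detected on all arrays, normexp (offset 50, on the median signal), other filters, priors and probe rules, the series matrix, the slide and the replicate number as blocks, and leaving out each mouse. The deposited series matrix equals the scanner intensity times 1 factor per array, within 0.825%, with column medians from 52.7 to 106, on a linear scale with no centring of genes, and how its factor was set is not given in the sources used here. Some genes of the further lists are not reported here by name. Same-numbered mice of different groups did not deviate together (median correlation -0.013), so the numbers were not used as pairs. No pair of arrays held identical values.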

Additional observations from a re-analysis of the deposited data

Results flagged for a closer look

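In 3 of the 50 sets of 5 mice (10 genes in 5 groups), 1 mouse stood farther from the others than Dixon's 95% limit for 5 samples, which chance alone does in about 1 in 20 sets. In Egr2, ConA + vehicle 3 hr mouse 5 was the highest of its group at 2.94, above 4 mice that lay close together. In Fosl1, ConA + vehicle 3 hr mouse 1 was the highest at -2.515 (log2 relative signal), and the call of lower Fosl1 with BW245C at 3 hr was lost without it. Also in Fosl1, untreated mouse 1 was the lowest at -6.66, in a group where the probe was not well above background.

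The difference between ConA + BW245C and ConA + vehicle livers was itself different at 24 hr and at 3 hr for 3 genes, by the test of that difference in the limma fit. Of the 10 genes, 2 were higher and 1 was lower, near the 19.3% and 10.8% of all genes. It amounted to 1.50 for Jun and 1.11 for Ier2, which were lower with BW245C mainly at 3 hr, and to -0.57 for Fosb, which was lower with BW245C at 24 hr only. For Fosb it was lost without any 1 of 14 mice and with the slide as a block.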

How the results depend on the processing

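Of 2253 values of the 10 genes under the alternatives and with mice left out, 2142 kept their direction and their side of the threshold, 91 lost the call, 6 gained one and 14 changed sign. Every sign change was in a value that had not passed, and in 1 of them, Fosb at 24 hr against 3 hr with vehicle, the turned value passed. The number of genes called with BW245C against vehicle at 24 hr, 9 over all arrays, was 4 at a threshold of 0.01, 5 when only these groups were fitted, 3 within slide 4, and 5 to 9 with 1 mouse left out, the 5 being without ConA + vehicle 24 hr mouse 1. At 3 hr, 6 became 1 within slide 3 and 4 to 7 with 1 mouse left out. For the difference of the agonist's effects, 3 became 1 at a threshold of 0.01, 1 with the slide as a fixed block, and 2 to 3 with a mouse left out. The filter on all 25 arrays leaves out Fosl1, Junb and Egr2 and gave 5 calls, in place of 8, for BW245C 24 hr against untreated, and 5, in place of 8, for vehicle 24 hr against 3 hr. Smaller samples and fewer genes tested come with the construction of these settings, and for the others the cause was not tested.

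Ier2 at 24 hr with vehicle against untreated was -0.046 under quantile normalization and -0.035 to 0.12 with mice left out. Fosb at 24 hr against 3 hr with vehicle was 0.21 with the percentile over detected probes, 0.41 with the series matrix (limma adjusted p = 0.0418, range over all alternatives 0.0418 to 0.960) and -0.11 to 0.049 with mice left out, while Myc was 0.18 with the series matrix. Fosb with BW245C at 24 hr against untreated was -0.019 with the slide as a fixed block. Fosb with BW245C against vehicle at 3 hr was -0.20 with the slide as a fixed block, -0.039 as a random block and -0.15 within slide 3. Egr1 in the difference of the agonist's effects ran from -0.46 to 0.091 with mice left out.

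With the replicate number as a block, the calls were again 6 at 3 hr and 9 at 24 hr for BW245C against vehicle, and it changed no count of calls among the 10 genes. Of the same-number pairs, 10 of 50 had a correlation over 0.1, and 4 of 25 arrays correlated best with their own number.

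The split of all genes moved with the scaling. With the percentile over detected probes it was 2915 higher and 1777 lower for BW245C against vehicle at 3 hr (main setting 1776 and 2547), 2333 and 2002 at 24 hr (2661 and 1352), and 1717 and 2580 for the difference of the agonist's effects (2908 and 1630), which the series matrix gave as 1435 and 3052. Against untreated at 24 hr that percentile gave 4694 and 3784 with BW245C (3436 and 5106) and 6217 and 4545 with vehicle (4495 and 5911), and the series matrix 5500 and 3179 with BW245C and 7249 and 3783 with vehicle. For 24 hr against 3 hr the series matrix gave 7184 and 3618 with BW245C (5404 and 5178) and 8346 and 2922 with vehicle (5011 and 5327), where it moved the median of all genes to 0.42, and the percentile gave 6763 and 3797 with vehicle. The 10 genes gave as many calls under that percentile as in the main setting, in every comparison listed here. Signal over background limits Fosl1 and, in untreated livers, Egr2.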
